A study of Mus musculus with 22 samples.

Results

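Bicarbonate and proton transporters of the hippocampus were measured on 11 array probes of 7 genes, namely Slc4a2, Slc4a3, Slc4a4, Slc4a7, Slc4a8, Slc4a10 and Slc9a5, out of 55681 probes on the arrays, of which 28026 carried a RefSeq transcript with a current symbol (21154 genes). All probes whose RefSeq transcript belonged to these genes were taken. The genes were chosen with the differences between TgproNGF#3 and wild-type (WT) mice on these arrays already known, so those differences are given as a description and are not tested here. TgproNGF#3 mice carry a mouse proNGF cDNA mutated at its furin cleavage site, followed by an IRES and EGFP, behind the Thy1.2 promoter, which drives expression in neurons of the postnatal brain. They come from a single founder line on a C57Bl/6xDBA/2 background, and the WT mice share that background without the transgene. The mice had received no treatment. RNA of the right hippocampus of 22 mice was hybridized, 1 mouse per array, from 4 TgproNGF#3 and 4 WT males of 1 month, 4 and 4 males of 3 months, and 3 and 3 females of 12 months. Each age lay on a slide of its own, so levels of different ages differ by sex or slide as well, and these cannot be told apart.

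Neurons acidify when they fire, and they restore their pH mostly by moving bicarbonate and protons across the membrane. Slc4a7 (NBCn1), Slc4a8 (NDCBE), Slc4a10 (NCBE) and Slc4a4 (NBCe1) use the sodium gradient to bring bicarbonate into the cell, Slc9a5 (NHE5) trades sodium for protons and is largely a brain protein, and Slc4a2 (AE2) and Slc4a3 (AE3) export bicarbonate in exchange for chloride. Excitability, vesicle release and GABA responses all depend on this balance. Several of these genes are also active outside neurons: Slc4a4 is abundant in astrocytes, and Slc4a2 and Slc4a10 in the choroid plexus, the epithelium that secretes cerebrospinal fluid.

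All 11 probes were well above background on all 22 arrays. Their intensities ran from 61.1 (Slc9a5) to 40300 (Slc4a3), and no spot of any array was saturated. In what follows a level is the log2 intensity of a probe minus the 75th percentile of its array, a difference is TgproNGF#3 minus WT in these levels (Log2 FC), and levels of different probes are not set against each other because probes hybridize with different efficiency. Between 57.6% and 80.3% of the non-control spots of an array were well above background, and TgproNGF#3 replicate 4 of 3 months was the lowest.

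The thresholds of the study were kept for calling a probe, an unadjusted limma p below 0.05 together with a Log2 FC beyond 1 in either direction. By that rule 0 of the 11 probes were called at 1 month, 2 at 3 months and 1 at 12 months, where 0.57%, 6.76% and 1.3% of all probes tested were called. With an adjusted p below 0.05 (limma, Benjamini-Hochberg over all probes) the members numbered 0, 1 and 0, against 0%, 8.43% and 0% of all probes. Without adjustment or fold threshold, 0, 4 and 1 of the 11 were below a p of 0.05, beside 1405 of 40536, 9127 of 33593 and 3084 of 34064 probes. The TgproNGF#3 and WT mice did not overlap on 0, 2 and 2 member probes, against 3.32%, 20.3% and 15.5% of all probes. Because the members were chosen on these contrasts, nothing is read from these shares. The called probes were 1 of the 2 probes of Slc4a7 and the probe of Slc4a10 at 3 months, and the probe of Slc4a10 at 12 months. The median Log2 FC of the 11 probes was -0.10, -0.37 and 0.07, and that of all probes tested was 0.07, -0.12 and 0.01.

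**Figure D1:**
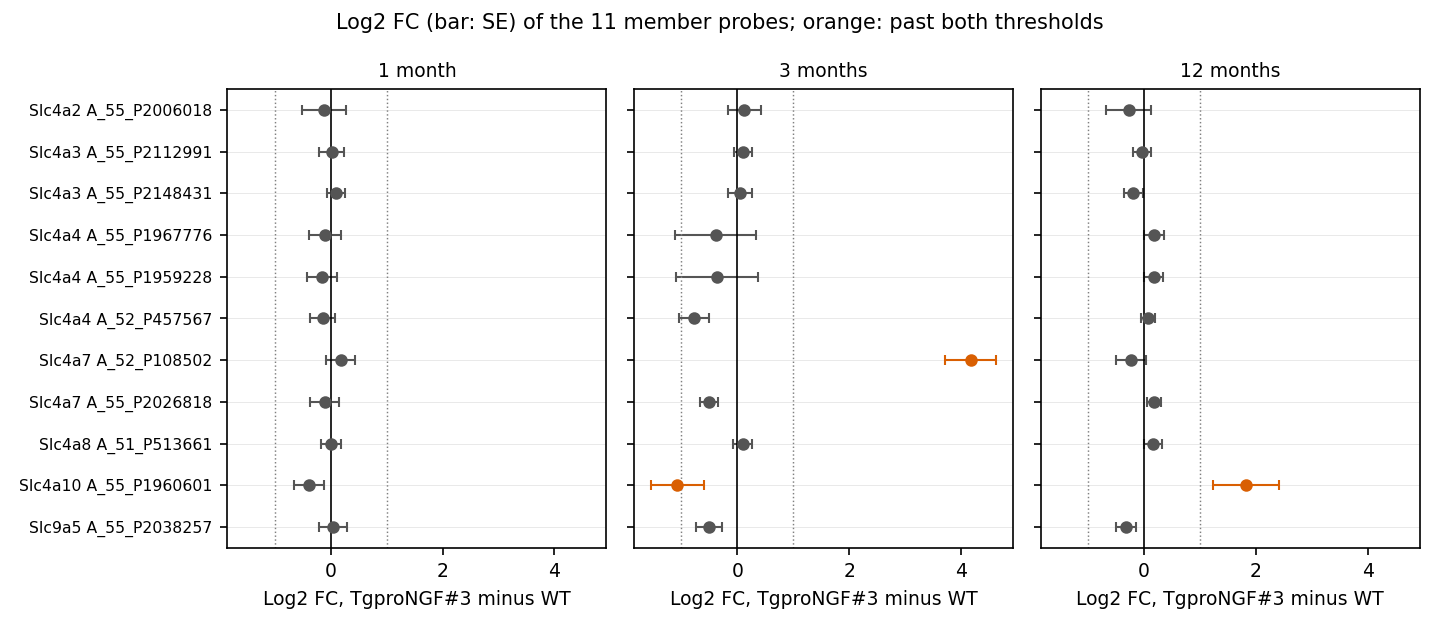
Log2 FC (TgproNGF#3 minus WT, x axis, log2 units) of the 11 member probes (y axis) at 1, 3 and 12 months, with bars of 1 SE, dotted lines at -1 and 1, and called probes in orange. At 1 month all 11 probes lie within 0.5 of zero, and at 3 months a single probe of Slc4a7 stands at 4.17.

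Slc4a7, the electroneutral sodium bicarbonate cotransporter NBCn1, found in dendritic spines and in many epithelia, gave the largest member value at 3 months on 1 of its probes, and the probes differed. On A_52_P108502 the TgproNGF#3 mice of 3 months read 2.70, 3.07, 3.06 and 2.64, and the WT mice -2.14, 0.28, -1.69 and -1.66. All 4 TgproNGF#3 mice lay above all 4 WT mice, and WT replicate 2 stood about midway between the groups. The Log2 FC was 4.17 (SE 0.45), an 18.0-fold difference and the largest positive value among the 33593 probes tested at that age. It was 3.82 within the first array row of the slide and 4.52 within the second, each with 2 mice per genotype, and it stayed between 3.89 and 4.70 when any single mouse was left out.

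The same probe showed no such separation at the other ages. At 1 month the TgproNGF#3 mice read -2.28, -1.63, -1.89 and -2.86 and the WT mice -2.34, -2.35, -2.15 and -2.54, a Log2 FC of 0.18 (SE 0.26). At 12 months the TgproNGF#3 mice read -2.68, -2.0 and -2.43 and the WT mice -1.72, -2.08 and -2.62, a Log2 FC of -0.23 (SE 0.27). The groups overlapped at both ages. Of the 4 WT mice of 3 months, 3 were near the levels of the other ages, and the TgproNGF#3 mice of 3 months were the ones that stood apart. With the array row as a term the value at 12 months was 0.25, of the opposite sign, and neither value was called.

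The second probe of Slc4a7, A_55_P2026818, ran the other way at 3 months. The TgproNGF#3 mice read 0.53, -0.07, 0.00 and 0.17 and the WT mice 0.55, 0.78, 0.64 and 0.67. Every TgproNGF#3 mouse was below every WT mouse, TgproNGF#3 replicate 1 by a narrow margin, and the Log2 FC was -0.50 (SE 0.16), short of the fold threshold. At 1 month the groups overlapped, with TgproNGF#3 levels from 0.65 to 1.18 and WT levels from 0.41 to 1.64 (Log2 FC -0.11, SE 0.26). At 12 months the TgproNGF#3 mice read 0.55, 0.56 and 0.55 and the WT mice 0.39, 0.33 and 0.40, again without overlap but in the opposite direction to 3 months (Log2 FC 0.18, SE 0.12).

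Side by side on each array, A_52_P108502 minus A_55_P2026818 ranged from -3.98 to -2.10 over the 14 arrays of 1 and 12 months. In the WT mice of 3 months the same quantity was -2.69, -0.50, -2.33 and -2.33, and in the TgproNGF#3 mice of 3 months it was 2.17, 3.14, 3.06 and 2.47. The difference between the probes thus moved by over 4 log2 units between WT replicates 1, 3 and 4 and every TgproNGF#3 mouse of 3 months. Over all 22 arrays, after subtracting the mean of each age, the probes correlated by -0.47 as a description. Both are assigned to the same RefSeq transcript, and neither the part of that transcript each probe reads nor its sequence is given in the sources used here.

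**Figure D2:**
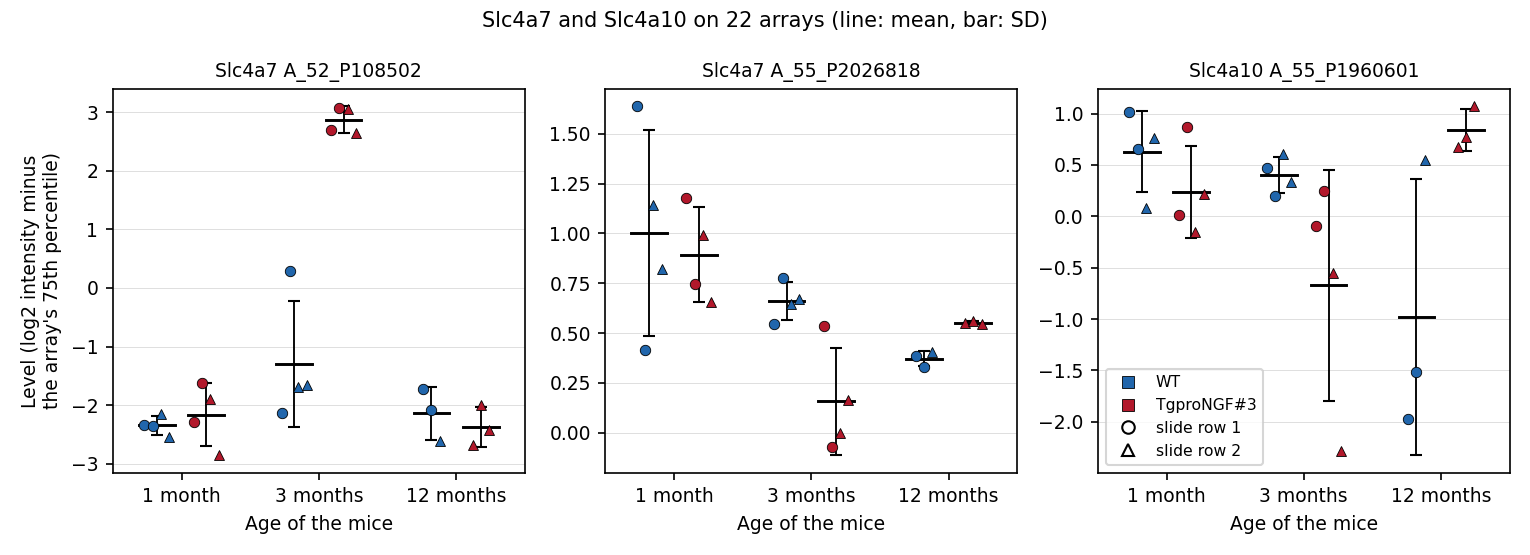
Level of the Slc4a7 probes A_52_P108502 and A_55_P2026818 and of the Slc4a10 probe A_55_P1960601 in each mouse (y axes, log2 intensity minus the array's 75th percentile, each with its own range) by age (x axis), WT in blue and TgproNGF#3 in red, circles for slide row 1 and triangles for slide row 2, with the mean (line) and SD (bar) of each group. The 4 TgproNGF#3 mice of 3 months sit between 2.64 and 3.07 on the first Slc4a7 probe, and the 2 low WT mice of 12 months on Slc4a10 are the 2 arrays of row 1.

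Genes that varied most like A_52_P108502 were looked for among 20510 probes of other genes with a symbol, by Pearson's r of the level minus the mean of each age over the 22 arrays. The leading 5 were Smndc1 (r = 0.858), Pla2g4e (0.842), Xrcc3 (0.833), Cyp2j6 (0.827) and Fadd (0.807), and 0 probes exceeded 0.9. Genotype means were not subtracted, so the 3-month difference on A_52_P108502 counted in r. A like difference or a high WT replicate 2 in these genes is favoured by this choice and is no separate observation. Smndc1 encodes a splicing factor, Pla2g4e a cytosolic phospholipase, Xrcc3 a protein of homologous recombination, Cyp2j6 a cytochrome P450 and Fadd an adaptor of death receptors. At 3 months Smndc1 read 0.40, -0.04, 0.00 and -0.29 in TgproNGF#3 mice and -2.03, -1.03, -2.14 and -2.04 in WT mice (Log2 FC 1.83, SE 0.26), with WT replicate 2 again the highest of the WT mice. At 3 months Pla2g4e read -2.47, -2.61, -2.35 and -2.17 in TgproNGF#3 mice and -4.87, -4.72, -4.50 and -4.92 in WT mice (Log2 FC 2.35, SE 0.15). The other 3 had 3-month Log2 FC values from 0.69 to 0.94, and the genes of this group lie on 5 chromosomes other than chromosome 14, where Slc4a7 lies (GRCm38.p6).

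None of the tested genes around Slc4a7 on chromosome 14 was called. Of the 5 protein-coding genes on each side, 7 could be tested on 9 probes, 0 were called at any age by limma, and their Log2 FC at 3 months lay between -0.66 and 0.45 with a median of 0.02. At an unadjusted p below 0.05 there were 0, 2 and 2 of the 9 probes at 1, 3 and 12 months. Of all probes tested these were 1405 of 40536, 9127 of 33593 and 3084 of 34064. At 12 months the Log2 FC of the neighbours lay between -0.21 and 0.63 with a median of 0.14. Of the direct neighbours, Il3ra, a subunit of the interleukin-3 receptor, had a 3-month Log2 FC of -0.02 (SE 0.48), and Nek10, a protein kinase, was measured on too few arrays to be tested.

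Slc4a10, the sodium-driven bicarbonate transporter NCBE of neurons and choroid plexus, was lower in TgproNGF#3 mice at 3 months and higher at 12 months on its probe A_55_P1960601, and each value rested on few mice. At 3 months the TgproNGF#3 mice read -0.09, 0.25, -0.56 and -2.29 and the WT mice 0.47, 0.20, 0.60 and 0.33. The lowest mouse, TgproNGF#3 replicate 4, lay far below the next one, and TgproNGF#3 replicate 2 lay inside the WT range. The array of TgproNGF#3 replicate 4 had the smallest share of spots well above background of all arrays (57.6%), whose part in its level was not tested. The Log2 FC was -1.07 (SE 0.47), or 2.10-fold lower, and it was -0.53 without TgproNGF#3 replicate 4. The call was also lost without TgproNGF#3 replicate 3 or any single WT mouse (the lowest Log2 FC being -1.14), while the value stayed below -1 in each of those. Within array row 1 the difference was -0.26 and within row 2, which holds TgproNGF#3 replicates 3 and 4, it was -1.89. The Log2 FC was -0.94 with dim spots kept, -0.94 with the percentile taken over all spots, and -0.99 on the log2 values of the authors, short of the fold threshold in each case, and with dim spots kept its p of 0.052 in limma also missed the threshold.

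At 12 months the TgproNGF#3 mice read 0.67, 0.77 and 1.07 and the WT mice -1.97, -1.52 and 0.55. The groups did not overlap, but WT replicate 3 was close to the lowest TgproNGF#3 mouse and over 2 above the other WT mice. The Log2 FC was 1.82 (SE 0.59), or 3.53-fold higher, with an adjusted p that did not pass. WT replicate 3 shares the second array row with the 3 TgproNGF#3 mice, and the low WT mice fill the first row. Within the second row the difference was 0.29, and with the row as a term in the fit the Log2 FC was 0.29 and the call was lost, the first row holding WT mice alone. The value ranged from 1.32 to 2.58 when 1 mouse was left out, without loss of the call. At 1 month the groups overlapped, with 0.01, 0.87, -0.15 and 0.21 in TgproNGF#3 mice and 1.01, 0.66, 0.08 and 0.76 in WT mice (Log2 FC -0.39, SE 0.27), and the differences within both rows were -0.39.

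On the 2 WT arrays of 12 months with low Slc4a10, the summed levels of interneuron and of pan-neuronal markers were also the lowest of the 6 mice, without a called marker in either list. A summed level is the log2 of the sum of the marker levels on the linear scale, so the brightest markers weigh most. The summed level of 6 interneuron markers, all measured on all arrays, was 5.34, 5.22 and 5.59 in the TgproNGF#3 mice, 4.46 and 4.69 in WT replicates 1 and 2, and 5.26 in WT replicate 3, so that WT replicates 1 and 2 were the low mice here as on the Slc4a10 probe. All 6 were higher in TgproNGF#3 mice (median Log2 FC 0.53) and 0 were called by limma, with 3 at an unadjusted p below 0.05. The summed level of 8 pan-neuronal markers had the same pattern, with 7.62, 7.51 and 7.66 in the TgproNGF#3 mice, 7.29 and 7.32 in WT replicates 1 and 2, and 7.51 in WT replicate 3. All 8 of these were higher in TgproNGF#3 mice (median Log2 FC 0.24), 0 were called and 1 was at an unadjusted p below 0.05. The 4 markers of hippocampal principal neurons were split, with 2 higher and 2 lower, and their summed level was 3.796 to 4.13 in TgproNGF#3 mice and 3.69, 3.799 and 4.08 in the WT mice. The summed level of 12 choroid plexus markers was 3.22 to 7.09 in TgproNGF#3 mice and 3.40 to 7.63 in WT mice of 12 months, without that pattern. At 3 months, when Slc4a10 was lower in TgproNGF#3 mice, the interneuron markers did not follow it. Their summed level was 4.74, 5.22, 5.19 and 4.79 in the TgproNGF#3 mice and 4.48 to 4.76 in the WT mice, and TgproNGF#3 replicate 4, the lowest mouse on the Slc4a10 probe, lay above all 4 WT mice. Of the 6 markers 4 were higher in TgproNGF#3 mice (median Log2 FC 0.27), with Gad1 at 0.63 and Sst at 0.79, both at an unadjusted p below 0.05 in limma. The 8 pan-neuronal markers were 3 higher and 5 lower at 3 months (median Log2 FC -0.22), with a summed level of 7.03, 7.21, 7.27 and 6.88 in the TgproNGF#3 mice and 7.07 to 7.54 in the WT mice. Map2, a microtubule protein of dendrites, was the 1 pan-neuronal marker past adjustment, with a Log2 FC of -0.93 (adjusted p = 0.00611 in limma). The part of neuronal marker content or array row in the Slc4a10 value was not tested. In tissue RNA of this kind, fewer cells of a type and less RNA per cell cannot be told apart.

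The genes that varied most like Slc4a10 all lie on chromosome 2, as Slc4a10 does. Among 20511 probes of other named genes, the closest were Fam171b (r = 0.932), A530058N18Rik (0.925), Pak6 (0.913), Meis2 (0.893) and Gpr176 (0.891), and 3 probes exceeded 0.9. Here too only the age means were subtracted. Low mice and signs of the Log2 FC shared with Slc4a10 are thus favoured by the choice and are no separate observation. Pak6 encodes a p21-activated kinase, Meis2 a homeobox transcription factor and Gpr176 an orphan G-protein-coupled receptor. Fam171b read 3.42, 3.58 and 3.69 in TgproNGF#3 mice of 12 months and 2.55, 2.54 and 3.41 in WT mice, with WT replicate 3 near the TgproNGF#3 mice as on Slc4a10. At 3 months its lowest mouse, at 1.28, was also TgproNGF#3 replicate 4, and the other TgproNGF#3 mice read 2.64, 2.97 and 2.22. Over these 5 genes the 12-month Log2 FC ran from 0.63 to 1.11 and the 3-month Log2 FC from -1.02 to -0.24. Chromosomes were examined after this list had been seen: of the 40 genes most like Slc4a10, 14 lie on chromosome 2, against 7.89% of the 15512 genes compared. For A_52_P108502 of Slc4a7 the same count was 1 of 40 on chromosome 14, against 3.48% of genes. These are counts without a test, and genes on 1 array are not independent.

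**Figure D3:**
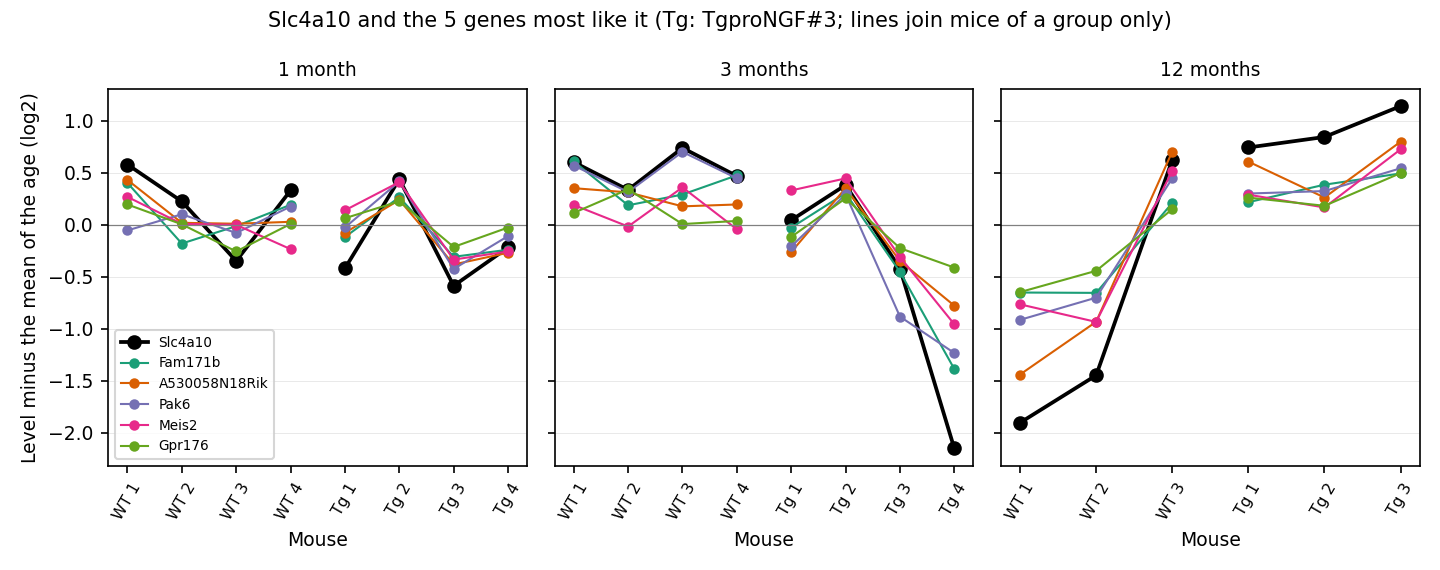
Level minus the mean of all mice of that age (y axis, log2 units) of Slc4a10 (black) and the 5 genes most like it (colours) in each mouse (x axis) at 1, 3 and 12 months, with lines joining the mice of 1 group for the eye only. WT replicates 1 and 2 of 12 months and TgproNGF#3 replicate 4 of 3 months are low on all 6 probes, and the 12-month Log2 FC of the 5 genes runs from 0.63 to 1.11. The 5 genes were chosen for varying with Slc4a10 over these arrays, so low mice shared with it are favoured by that choice.

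None of the genes next to Slc4a10 on chromosome 2 was called. The 5 protein-coding genes on each side gave 15 tested probes at 1 month and 12 at 3 and 12 months, and limma called 0 of them at any age, with 0, 3 and 0 at an unadjusted p below 0.05. Those 3 probes, of Rbms1 (Log2 FC -0.43, SE 0.18), Tank (-0.46, SE 0.16, with groups that did not overlap) and Tbr1, were lower in TgproNGF#3 mice at 3 months. They were chosen after their values were seen. At that age 9127 of the 33593 probes tested were below a p of 0.05, 37.3% were higher and the rest lower, and 20.3% did not overlap, so neither this count nor its direction sets the neighbours apart. Whether the neighbours varied with Slc4a10 was not tested. The median Log2 FC of all neighbour probes was -0.05, -0.13 and -0.11. Tbr1, a transcription factor of cortical projection neurons and the neighbour on one side, had 12-month values of 0.12 (SE 0.15) and -0.15 (SE 0.26) on its probes and 3-month values of -0.20 (SE 0.21) and -0.70 (SE 0.29). Dpp4, a serine peptidase and the neighbour on the other side, had a Log2 FC of 0.01 (SE 0.22) at 1 month and 0.70 (SE 0.49) at 3 months.

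Slc4a4, the electrogenic sodium bicarbonate cotransporter NBCe1, was read by 3 probes. A_55_P1967776 and A_55_P1959228 gave nearly the same pattern, correlating by 0.996 after subtraction of the age means, and on each array they differed by -0.12 to 0.26. At 3 months A_55_P1967776 read -1.66, -0.93, 1.14 and -2.93 in TgproNGF#3 mice and -0.01, -1.02, -1.35 and -0.45 in WT mice. TgproNGF#3 replicates 3 and 4 were the highest and the lowest of the 8 mice and lay over 4 apart, so the Log2 FC of -0.39 carried an SE of 0.73. It ranged from -1.13 without TgproNGF#3 replicate 3, when it was called, to 0.22 without TgproNGF#3 replicate 4. A_55_P1959228 gave -0.37 (SE 0.74). At 1 and 12 months the Log2 FC values of both lay between -0.16 and 0.18, with overlapping groups.

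The third probe, A_52_P457567, did not follow the others (r = 0.143 with A_55_P1967776 after subtraction of the age means) and was among the dimmest members, with intensities from 62.7 to 369. At 3 months it read -4.54, -5.13, -4.10 and -3.86 in TgproNGF#3 mice and -3.65, -3.97, -3.41 and -3.49 in WT mice. TgproNGF#3 replicate 4, the lowest mouse on the other probes, was the highest TgproNGF#3 mouse here, and the groups overlapped. Its Log2 FC was -0.78 (SE 0.27) at 3 months, -0.14 (SE 0.23) at 1 month and 0.07 (SE 0.13) at 12 months, and none of these was called.

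**Figure D4:**
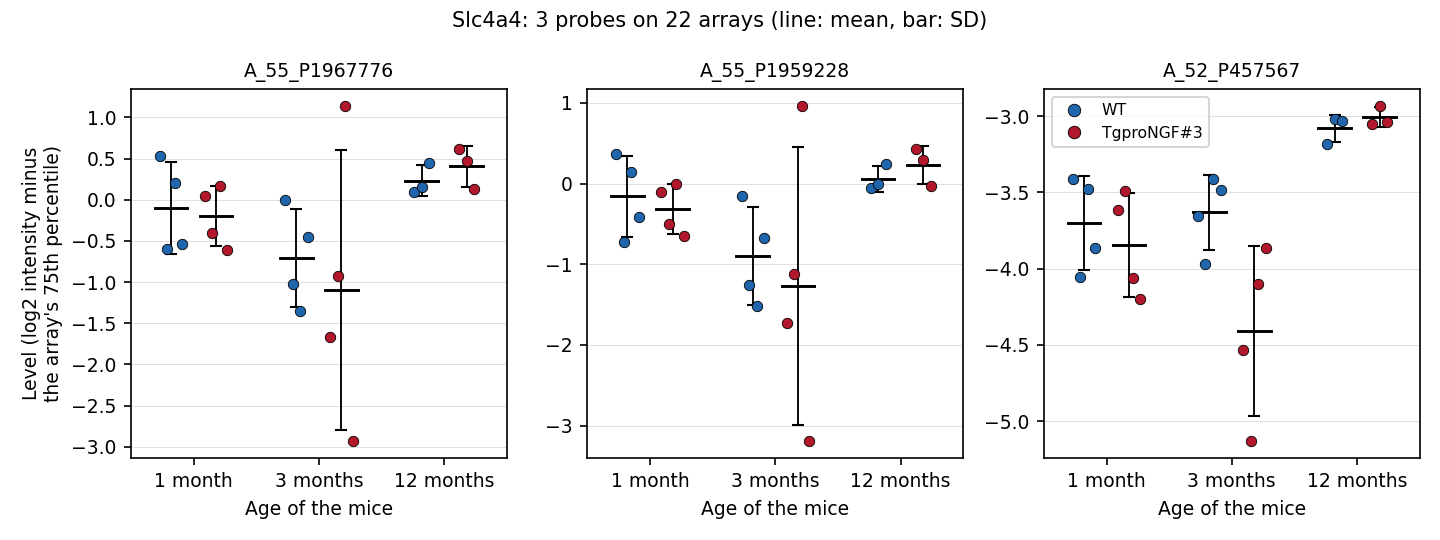
Level of the 3 Slc4a4 probes in each mouse (y axes, log2 intensity minus the array's 75th percentile, each panel with its own range) by age (x axis), WT in blue and TgproNGF#3 in red, with the mean (line) and SD (bar) of each group. The TgproNGF#3 mice of 3 months spread from -2.93 to 1.14 on A_55_P1967776 and from -3.19 to 0.96 on A_55_P1959228, but from -5.13 to -3.86 on A_52_P457567.

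Slc4a8, the sodium-driven chloride bicarbonate exchanger NDCBE of presynaptic terminals, differed little on A_51_P513661. At 3 months the TgproNGF#3 mice read 0.87, 1.20, 1.01 and 0.69 and the WT mice 1.05, 0.97, 0.49 and 0.88. The groups overlapped at every age, and the Log2 FC was 0.01 (SE 0.18), 0.09 (SE 0.17) and 0.16 (SE 0.16) at 1, 3 and 12 months. Its level was higher in the 8 mice of 1 month (1.23 to 1.88) than in all 8 of 3 months (0.49 to 1.20), ages that also differ by slide.

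Slc9a5, the sodium proton exchanger NHE5 of neuronal endosomes, was dim, with intensities from 61.1 to 380. At 3 months A_55_P2038257 read -4.19, -4.87, -4.30 and -4.74 in TgproNGF#3 mice and -3.42, -4.26, -4.12 and -4.26 in WT mice. WT replicate 1 was clearly the highest mouse, and the TgproNGF#3 range began inside that of the WT mice. The Log2 FC was -0.51 (SE 0.24), and -0.31 without WT replicate 1. At 12 months the TgproNGF#3 mice read -4.47, -4.84 and -4.47 and the WT mice -4.48, -4.26 and -4.07 (Log2 FC -0.32, SE 0.17), with overlap at a single point. At 1 month the value was 0.05 (SE 0.25).

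The bicarbonate exporters were not called on any probe at any age, and the values of Slc4a2 were imprecise. Slc4a3, the anion exchanger AE3 of neurons and heart, had Log2 FC values of 0.02, 0.11 and -0.03 on A_55_P2112991 and 0.09, 0.05 and -0.19 on A_55_P2148431 at 1, 3 and 12 months, with SE from 0.16 to 0.23 and overlapping groups throughout. WT levels on A_55_P2148431 were -0.22 to 0.08 at 1 month, -1.25 to -0.68 at 3 months and -1.09 to -0.80 at 12 months, so that the mice of 1 month stood above both later ages without overlap. Slc4a2, the anion exchanger AE2 of most epithelia, had Log2 FC values of -0.13 (SE 0.39), 0.12 (SE 0.30) and -0.28 (SE 0.40) on A_55_P2006018.

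The spread of Slc4a2 among mice went with the summed levels of choroid plexus and of leptomeningeal markers. At 12 months the TgproNGF#3 mice read -0.97, -1.25 and -0.15 and the WT mice -1.14, 0.24 and -0.63, while the summed level of the 12 choroid plexus markers in the same mice was 3.22, 3.30 and 7.09 and then 3.40, 7.63 and 5.79. The mice with high Slc4a2 were those with a high summed level in both genotypes. Ttr outweighed the other markers in this sum, with a mean level of 6.25 in WT mice of 3 months. Clic6, the next, had 1.54 in those mice. Over the 22 mice, with the mean of each genotype and age subtracted, Pearson's r was 0.84 (permutation p = 0.00029, adjusted p = 0.00558) and Spearman's rho 0.81 (permutation p = 0.00046, adjusted p = 0.0106). Mice were permuted within their group, 2-sided and with 100000 resamples, for 77 relations of 11 probes with 7 marker lists, a family chosen after the Slc4a2 levels had been seen. The permutations treat the mice as independent, whereas same-numbered TgproNGF#3 and WT mice of 1 month deviate together, so that these p-values may be too small. Without the 2 mice farthest from the median of the markers r was 0.86, and within the slides of 1, 3 and 12 months it was 0.82, 0.71 and 0.96. Slc4a2 also varied with 5 markers of the leptomeninges, the thin membranes around the brain (r = 0.78, permutation p = 3e-05, adjusted p = 0.00231, rho = 0.75, permutation p = 0.00011, adjusted p = 0.00847). That relation was 0.70 without the 2 farthest mice and 0.79, 0.63 and 0.96 within the slides. Dcn was the brightest of these 5 markers, with a mean level of 1.75 in WT mice of 3 months, beside -0.07 for Col1a2, the next. Whether Slc4a2 varied with the dimmer markers of either list, and how far these lists vary with each other, was not tested. The choroid plexus markers were lower in TgproNGF#3 mice on all 12 probes at each age (median Log2 FC -0.42, -0.83 and -0.88), with 0 called by limma and 0 at an unadjusted p below 0.05. These markers vary together from array to array, so the 12 are not separate observations. At 3 months TgproNGF#3 replicate 2 had a summed level of 2.72, whereas the other TgproNGF#3 mice had 5.69 to 7.11 and the WT mice 6.23 to 6.84. The leptomeningeal markers differed in direction between the ages, with 4 of 5 lower in TgproNGF#3 mice at 1 month (median Log2 FC -0.36), all 5 higher at 3 months (0.32) and 4 of 5 lower at 12 months (-0.65). At 12 months limma called Col1a2, a collagen chain, at -1.65 and Slc6a13, a GABA transporter, at -1.42.

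The remaining relations past an adjusted p of 0.05 were those of the concordant Slc4a4 probes with 8 pan-neuronal markers. For A_55_P1967776 Pearson's r was 0.72 (permutation p = 0.00013, adjusted p = 0.00334) and Spearman's rho 0.77 (permutation p = 0.00034, adjusted p = 0.0106), and for A_55_P1959228 they were 0.71 (permutation p = 0.00012, adjusted p = 0.00334) and 0.77 (permutation p = 0.00055, adjusted p = 0.0106). Leaving out the 2 farthest mice gave r = 0.74 for both. Within the slides A_55_P1967776 gave 0.62, 0.80 and 0.30 at 1, 3 and 12 months, so the relation was weak at 12 months. TgproNGF#3 replicate 4 of 3 months had the lowest pan-neuronal level of the 22 mice (6.88) as well as the lowest Slc4a4. Its array also had the smallest share of spots well above background (57.6%). The third probe of Slc4a4 was not among the relations past the threshold. With the other lists A_55_P1967776 had r of 0.54 (principal neurons), 0.48 (interneurons), 0.24 (leptomeninges), 0.19 (oligodendrocytes), -0.05 (astrocytes) and -0.15 (choroid plexus). In the same order A_55_P1959228 had 0.54, 0.45, 0.27, 0.19, -0.04 and -0.12, and none of these passed adjustment. The pan-neuronal level lay between 6.88 and 7.27 in TgproNGF#3 mice and between 7.07 and 7.54 in WT mice of 3 months. For Slc4a10 the relation with interneuron markers over all 22 mice was r = 0.64 (permutation p = 0.0486, adjusted p = 0.234) and rho = 0.53 (permutation p = 0.0533, adjusted p = 0.269). It was 0.41 without the 2 farthest mice and 0.40, 0.38 and 0.95 within the slides, with the highest value in the mice of 12 months. With pan-neuronal markers it was r = 0.40 (permutation p = 0.094, adjusted p = 0.362) and rho = 0.35 (permutation p = 0.165, adjusted p = 0.479), 0.57 without the 2 farthest mice, and -0.20, 0.46 and 0.88 within the slides. With markers of principal neurons it was r = 0.51 (permutation p = 0.0357, adjusted p = 0.229) and rho = 0.42 (permutation p = 0.0976, adjusted p = 0.395), 0.44 without the 2 farthest mice, and 0.32, 0.51 and 0.67 within the slides. With leptomeningeal markers it was r = 0.46 (permutation p = 0.059, adjusted p = 0.252) and rho = 0.41 (permutation p = 0.0852, adjusted p = 0.365), 0.21 without the 2 farthest mice, and 0.65, 0.63 and 0.17 within the slides. For astrocytes, oligodendrocytes and choroid plexus r was 0.02, 0.11 and 0.09, so no relation of Slc4a10 with any of the 7 lists passed adjustment. All markers of the 7 lists were measured on all 22 arrays.

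**Figure D5:**
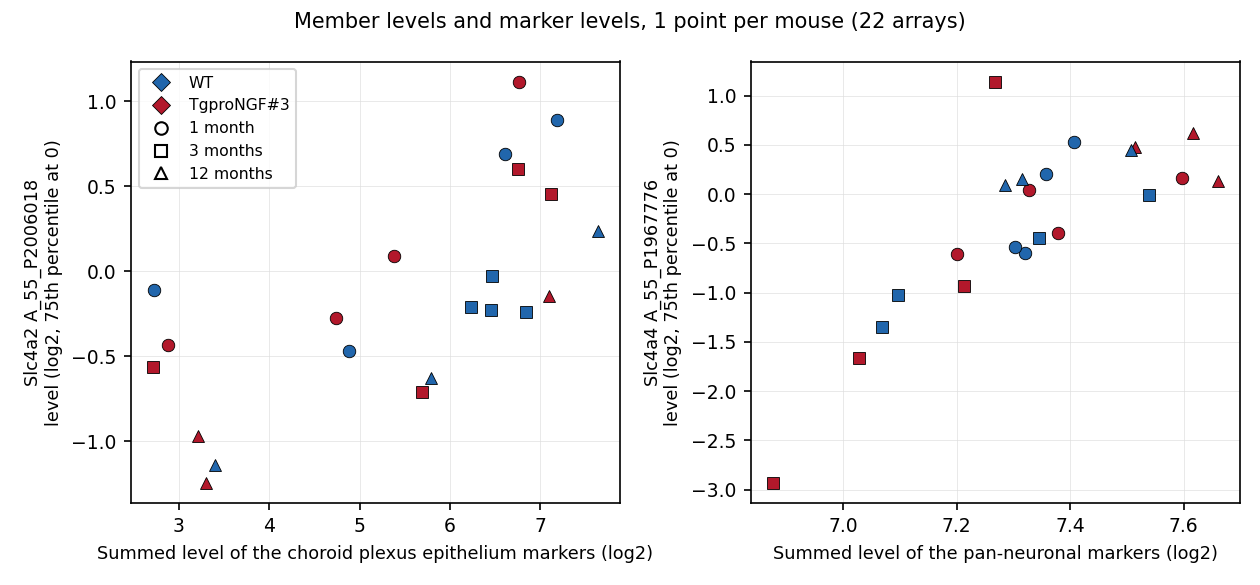
Level of Slc4a2 (left) and of the Slc4a4 probe A_55_P1967776 (right) on the y axes (log2 intensity minus the array's 75th percentile) against the summed level of 12 choroid plexus markers and of 8 pan-neuronal markers on the x axes (log2), 1 point per mouse, WT in blue, TgproNGF#3 in red, with a symbol for each age. High Slc4a2 goes with a high summed level of choroid plexus markers (r = 0.84 within groups), in which Ttr weighs most. Low Slc4a4 goes with a low summed level of pan-neuronal markers (r = 0.72 within groups).

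Other genes of pH regulation were set beside these values on 1 probe per gene, whereas the members were read on all their probes. By the rule of the brightest probe Slc4a7 would be read on A_55_P2026818, which was not called. Of 55 listed genes (the remaining SLC4 and SLC9 families, SLC26 anion exchangers, carbonic anhydrases, transporter regulators, proton-linked lactate transport, acid sensors and proton channels), 54 had a probe and 50, 46 and 46 could be tested at 1, 3 and 12 months, each on its brightest probe. Their median Log2 FC was 0.03, -0.05 and -0.01. Called genes numbered 1, 1 and 0, a share of 2%, 2.17% and 0% against 0.57%, 6.76% and 1.3% of all probes. At an unadjusted p below 0.05 there were 4, 8 and 4 genes, and with an adjusted p below 0.05 there were 0, 2 and 0. Of the tested genes 29, 15 and 22 had positive values.

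The carbonic anhydrases, which interconvert carbon dioxide and bicarbonate, included 2 of the 3 genes that passed either threshold at 3 months. Car2, the main cytosolic form of glia, rose by 0.78 (SE 0.14, adjusted p = 0.0105 in limma), from a mean level of 2.77 ± 0.11 (SD, n = 4) in WT mice to 3.55 ± 0.17 (SD, n = 4), below the fold threshold. Car8, a family member without enzyme activity, was called with a Log2 FC of -1.62 (SE 0.48, adjusted p = 0.0722 in limma) on a dim probe measured on 3 TgproNGF#3 and 4 WT arrays. Of the 14 carbonic anhydrases tested at 3 months, 3 had positive and 11 negative values, with a median of -0.21. Car2 belongs also to oligodendrocytes, of whose 6 markers 4 were higher and 2 lower at 3 months (median Log2 FC 0.33). Mbp, a myelin protein, was among those at an unadjusted p below 0.05 in limma with a negative value of -0.51, and Cnp and Mag with positive values of 0.40 and 0.44.

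Tesc, an activator of the sodium proton exchanger NHE1, fell by 0.58 on the log2 scale at 3 months (SE 0.15, adjusted p = 0.0418 in limma) and was not called. Slc26a7, a chloride bicarbonate exchanger, was called at 1 month with a Log2 FC of -1.38 (SE 0.54) on 2 arrays of each genotype, close to background. With the replicate number as a block, which pairs the mice of 1 month, 0 genes were called there. The next largest values at 1 month were those of Slc9b1 (-0.86, SE 0.36), a sperm sodium proton exchanger, and Car13 (-0.81, SE 0.43), a cytosolic carbonic anhydrase, neither called.

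Slc4a5, the bicarbonate cotransporter of the apical choroid plexus membrane, had Log2 FC values of -0.46 (SE 1.26), -0.84 (SE 0.95) and -1.10 (SE 1.46), and its SE were larger than those of any member. The SD of its levels was 2.16 in TgproNGF#3 mice of 1 month (n = 4) and 2.54 in those of 12 months (n = 3). At 3 months Slc16a3, a lactate and proton carrier, had a Log2 FC of 0.81 (SE 0.23). At 12 months Chp2, a cofactor of sodium proton exchangers, had a Log2 FC of -0.61 (SE 0.23) and Slc9a4, the exchanger NHE4, one of 0.53 (SE 0.15). None of these was called. The 4 other SLC4 genes, which include Slc4a5, had medians of -0.03, -0.06 and -0.44 with 0 called and 0 at an unadjusted p below 0.05 by limma.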

How the data were processed

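Hippocampal RNA was labelled with Cy3 and hybridized to Agilent mouse 8X60K arrays by the authors, who scanned them with Feature Extraction 10.7.3.1. The deposited scanner values are intensities per spot, background-subtracted by the software and not scaled between arrays. The authors also deposited log2 values of 28929 probes aligned to the 75th percentile; these differ from the log2 intensities used here by 1 constant per array (largest SD 0.00809), and all 11 member probes are among them. Their medians lie between 9.41 and 9.73, and their scale and centring are as in the methods of the paper.

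Here, spots that were controls, outliers or not well above background were removed, the 75th percentile of the remaining log2 intensities was subtracted per array, and each age was fitted alone with limma 3.58.1 in R 4.3.3 (lmFit, eBayes, 2-sided, at least 2 values per group, Benjamini-Hochberg). Replicates are separate mice. The number of arrays limits the precision. The members, gene lists and marker lists were chosen with earlier results of these data known. Genes were named by rule: all member probes, called genes of the other lists, the 3 largest values per age among the other pH genes, direct neighbours, and the 5 genes most like a probe. Car2 and Tesc were added after their values were seen. Symbols, chromosomes and neighbours came from RefSeq (GRCm38.p6), while the array design uses mm9, and probes with Ensembl names were not used here. Same-numbered mice of 1 month deviate together (r = 0.511, 0.272, 0.191 and 0.208 over 36103 probes), and those of 3 and 12 months do not. Alternatives changed the spot filters, scaling, background correction (normexp, offset 50), blocks, thresholds and mice. The procedure was tested on simulated data. The results of 2 genes are not reported here.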

Additional observations from a re-analysis of the deposited data

Results flagged for a closer look

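In 3 of 44 groups of 4 mice a single mouse stood apart by its gap to the nearest other mouse; chance gives about 1 in 20 groups. These were WT replicate 2 of 3 months on Slc4a2 (-0.025, the others -0.24 to -0.21), TgproNGF#3 replicate 4 of 1 month on the Slc4a3 probe A_55_P2112991 (2.62, the others 3.03 to 3.097) and WT replicate 1 of 3 months on Slc9a5 (-3.42, the others -4.26 to -4.12).

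On 3 probes every TgproNGF#3 mouse lay on one side of the WT mean at 3 months and on the other side at 12 months, and the difference between the ages was not tested. The Log2 FC values at 3 and 12 months were -1.07 and 1.82 for Slc4a10, -0.78 and 0.073 for the Slc4a4 probe A_52_P457567, and -0.50 and 0.18 for the Slc4a7 probe A_55_P2026818. These ages also differ in sex and slide.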

How the results depend on the processing

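The 3-month value of the Slc4a7 probe A_52_P108502 was called under all alternatives run, and 0 member probes were called at 1 month under any of them. At 3 months 1 member probe was called in place of 2 with dim spots kept, with the percentile over all spots, on the log2 values of the authors and by adjusted p alone, and 1 to 2 with 1 mouse left out. At 12 months 0 in place of 1 were called with the array row as a block and by adjusted p alone, and 1 without any single mouse. With the replicate number as a block, the member counts stayed at 0, 2 and 1.

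The called other pH genes of 1 month fell from 1 to 0 with dim spots kept, with probes above background on every array, with the percentile over all spots, with normexp, on the values of the authors, with 1 value per group, with the replicate block and by adjusted p alone, and ranged from 0 to 3 with 1 mouse left out (0 without TgproNGF#3 replicate 4, WT replicate 1 or WT replicate 3, 3 without WT replicate 2 or WT replicate 4). At 3 months they were 3 with dim spots kept, 0 with every array above background, with normexp and on the values of the authors, and 2 with the replicate block and by adjusted p alone. At 12 months they were 2 with dim spots kept. The causes were not tested. For single member probes, 628 values stayed within the spread between mice and 10 moved beyond it. Scaling on the median shifted every Log2 FC of 12 months by 0.15, and taking the percentile over all spots shifted those of 3 months by 0.13. The Slc4a4 probe A_52_P457567, one of the dimmest, gave 0.07 at 12 months and -0.02 with normexp.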
